A study of Mus musculus with 24 samples.

Results

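The genes described here are 32 genes of the cell cycle and of DNA replication, out of the 54532 genes in the deposited expression table. They were taken by symbol, whatever their level, and all 32 had a row. The table covers liver and inguinal white adipose tissue (iWAT), a fat depot under the skin, of mice with a knockout of Mrs2 (KO) or without it (WT). The protein made from Mrs2 carries magnesium into mitochondria. The mice were 13 weeks old when they were put on chow (CD) or on a Western diet (WD), which they then ate for 52 weeks. This gives 4 groups per tissue: WT on chow, KO on chow, WT on WD and KO on WD, each with 3 libraries. Which part of Mrs2 was deleted, the strain, the sex and whether all cells carried the knockout are not stated in the labels. Reads from exons that were kept would still be counted. RNA came from a powder of the whole frozen organ (50 mg of liver, 100 mg of iWAT, the latter with its lymph nodes removed), so every value is a mean over all cell types of the tissue. Fewer cells of a type and less RNA per cell cannot be told apart in such samples. P-values measure the spread between these libraries, which may be technical, since the labels do not say that each came from its own animal.

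A cell that commits to division raises D-type cyclins, which free E2F transcription factors from the retinoblastoma protein. E2F then drives the genes for licensing and copying DNA, among them the MCM helicase, the clamp PCNA and the enzymes that supply nucleotides. A later wave, with cyclins A and B, CDK1, the Aurora and Polo kinases and the spindle checkpoint, brings the cell through mitosis, and many of its genes carry CCAAT boxes and a cell cycle homology region (CHR) near their start. CDKN1A (p21), a target of p53, inhibits cyclin-dependent kinases. Adult hepatocytes and adipocytes seldom divide, and in both tissues immune cells, vessel cells and other cells between them can supply such transcripts.

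The promoters of Mcm3, Cdc20, Cdkn1a and Ccnb2 are shown because they had the smallest p in livers on WD, KO against WT, with 1 gene taken per role group, among members with an entry in the RefSeq promoter table (GRCm38.p6). Each line holds the 250 bases upstream of the annotated start, 5′ to 3′ on the strand of the gene. Capitals mark matches on either strand to CCAAT, to the CHR letters TTTGAA or TTCGAA, or to the E2F letters TTTCCCGC, TTTGGCGC, TTTCGCGC or TTTGCCGC, and no match overlapped another. Mcm3 lies at chr1:20820313-20820562 (minus strand), Cdc20 at chr4:118437344-118437593 (minus), Ccnb2 at chr9:70421555-70421804 (minus) and Cdkn1a at chr17:29090729-29090978 (plus).
Mcm3: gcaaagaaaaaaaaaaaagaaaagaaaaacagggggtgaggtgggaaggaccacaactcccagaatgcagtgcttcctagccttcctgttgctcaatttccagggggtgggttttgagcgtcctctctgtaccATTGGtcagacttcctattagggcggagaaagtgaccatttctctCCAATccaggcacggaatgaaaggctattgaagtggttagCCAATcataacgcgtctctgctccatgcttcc
Cdc20: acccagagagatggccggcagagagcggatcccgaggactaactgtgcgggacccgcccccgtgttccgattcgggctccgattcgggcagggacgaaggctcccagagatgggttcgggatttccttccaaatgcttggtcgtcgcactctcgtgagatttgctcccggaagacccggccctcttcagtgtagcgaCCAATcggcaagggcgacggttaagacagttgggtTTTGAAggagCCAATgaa
Ccnb2: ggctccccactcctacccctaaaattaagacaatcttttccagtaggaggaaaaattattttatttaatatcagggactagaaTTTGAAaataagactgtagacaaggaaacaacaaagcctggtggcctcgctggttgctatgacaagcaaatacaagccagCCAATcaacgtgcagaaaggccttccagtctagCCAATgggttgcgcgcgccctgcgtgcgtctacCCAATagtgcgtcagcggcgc
Cdkn1a: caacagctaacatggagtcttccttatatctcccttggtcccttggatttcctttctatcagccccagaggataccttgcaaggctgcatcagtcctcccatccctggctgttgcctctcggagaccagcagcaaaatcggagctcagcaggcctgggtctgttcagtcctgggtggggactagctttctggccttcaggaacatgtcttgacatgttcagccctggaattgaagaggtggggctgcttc

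Mcm3 held 3 CCAAT matches, whose first bases lie 117, 72 and 32 bases upstream, and neither a CHR nor an E2F match. Ccnb2 also held 3, at 87, 54 and 21 bases, and a CHR match at 167. In Cdc20 a CHR match at 18 bases lay between CCAAT matches at 53 and 8 bases. Cdkn1a had no match in this window. Of the 32 genes, 27 matched an entry of the table. Among these, 19 (70.4%) held CCAAT, against 35.2% of the 20480 promoters with 1 entry taken per gene. The CHR letters were in 9 (33.3%), against 16.6% of all promoters: Mcm2, Mcm7, Ccnb2, Cdk1, Mki67, Top2a, Bub1b, Cdc20 and Cdkn3. The E2F letters were in 5 (18.5%), against 2.18%, namely Mcm5, Mcm6, Mcm7, Cdk1 and Cdc6. These shares describe letters in a window, not binding.

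Libraries held 14717613 to 19538975 reads in liver and 15358324 to 20354594 in iWAT. Mrs2 (ENSMUSG00000021339) was 5.87 to 6.50 FPKM in the 3 WT chow livers and 3.90 to 4.47 in the KO chow livers. FPKM count fragments relative to gene length and library size, and the deposited values already hold a scaling factor per library. For WD livers, Mrs2 stood at 5.10, 4.10 and 5.11 FPKM under the WT label and at 4.10, 5.21 and 4.21 under the KO label, so the labels did not separate there. Every direction given below for liver on WD is therefore between libraries labelled KO and WT. In iWAT, Mrs2 separated the labels on chow (WT 3.87 to 4.67, KO 1.74 to 2.25) and on WD (WT 2.74 to 5.01, KO 1.60 to 1.95). Hepatocyte markers summed to 23438 to 79576 FPKM in liver and 341 to 833 in iWAT, and adipocyte markers to 14.9 to 97.9 and 7828 to 15152. Libraries that stood apart were KO chow liver 1 and WT WD liver 2 for pancreatic acinar markers (1655 and 1360 FPKM, at most 24.5 in the other livers). WT chow liver 3 and KO WD liver 2 stood apart for skeletal muscle markers (154 and 73.3 FPKM, at most 21.8 elsewhere in liver). In iWAT, muscle markers were highest in WT WD 1 and KO WD 1 (3560 and 1085 FPKM). Lymphocyte markers there were highest in WT chow 3, KO chow 3 and KO WD 2 (241, 206 and 128 FPKM, at most 71.4 elsewhere). Markers of germinal center B cells and follicles summed to 88.0, 234 and 107 FPKM in these libraries. They summed to 86.2 in WT chow 2 and to at most 52.9 in the other iWAT libraries. Whether lymph node tissue remained in any library was not tested. Red cell markers were highest in WT WD 1 of both tissues, at 1173 FPKM in liver (at most 567 elsewhere) and 7727 in iWAT (at most 3258 elsewhere).

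Most of the 32 genes were at low levels in both tissues. Per length, Pcna was highest, at a mean of 15.2 FPKM over the 12 livers and 17.9 over the 12 iWAT libraries. Tk1 (6.87 FPKM), Ccnd1 (6.28) and Mcm7 (4.28) followed in liver, and the lowest means were those of Ccnb1 and Cdc6 (both 0.142), Bub1 (0.119) and Cdkn3 (0.0962). In iWAT Cdkn1a came after Pcna, at 9.35 FPKM, and Bub1 (0.242) and Cdkn3 (0.234) were again last. A mean of at least 0.5 FPKM over a tissue was asked for a test, which 23 of the 32 genes met in liver and 30 in iWAT. In liver Ccna2, Ccnb1, Cdk1, Bub1, Bub1b, Aurkb, Plk1, Cdc6 and Cdkn3 were below it, in iWAT Bub1 and Cdkn3. Of the 23 in liver, Ccnb2, Mki67, Top2a, Birc5 and Cdc20 met it only because of the WT WD libraries, so they had to differ from that group, and 18 met it without them. A fit without this filter covers all 32.

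**Figure D1:**
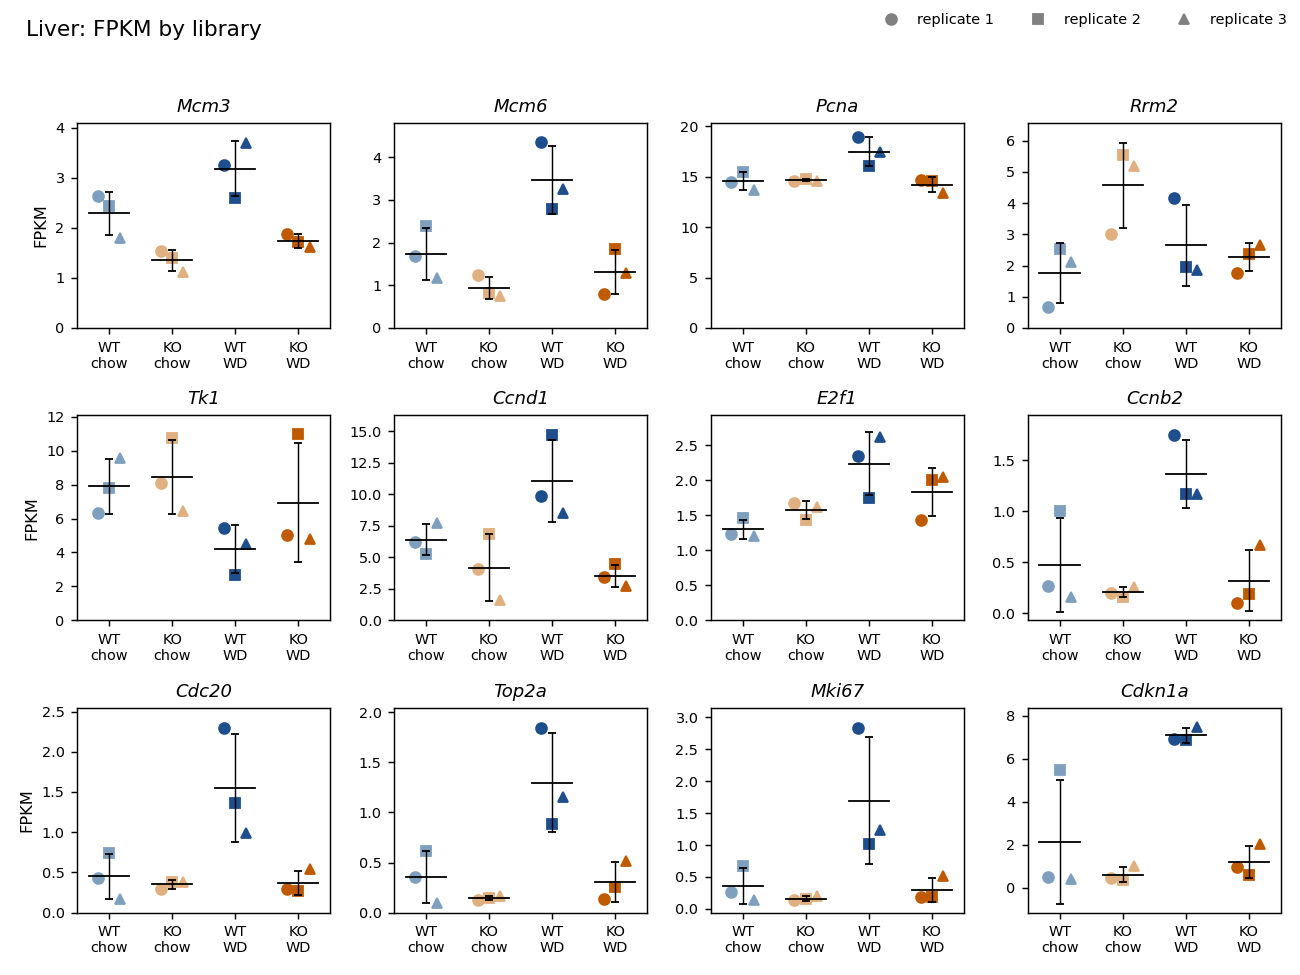
FPKM (vertical axes, linear) of 12 members in each of the 12 livers by group, where marker shape gives the replicate, the bar the group mean and the whisker 1 SD (n = 3). Mcm6, Ccnb2, Cdc20, Top2a, Mki67 and Cdkn1a were higher in every WT WD liver than in every other liver, while Rrm2 was highest in 2 KO chow livers and Tk1 was lowest in WT WD.

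In liver on WD, genes of the helicase, of cyclins and of mitosis were lower in the libraries labelled KO than in those labelled WT. Of the 32 genes, 20 were lower in all 3 KO than in all 3 WT libraries and 0 were higher. Among the 14019 genes tested, 17.5% were lower without overlap. Here and below, such shares cover only genes that met the filter, while the counts cover all 32 members whatever their level. With limma on log2(FPKM + 1) and Benjamini-Hochberg adjustment over all genes tested, 9 members were called lower at an adjusted p under 0.05 and 0 higher: Mcm3, Mcm6, Pcna, Ccnd1, Ccnb2, Cdc20, Top2a, Mki67 and Cdkn1a. Of all genes tested, 10.4% were called lower and 21.0% in either direction. Ccnb2, Cdc20, Top2a and Mki67 met the filter only through WT WD and had to differ, so the 9 are not set against that share. Of the 18 members that met it without WT WD, 5 were called. Without the filter, 12 of the 32 were called lower, and Bub1b, Plk1, Cdk1 and Ccnb1 joined while Pcna dropped out. Of the 29269 genes in that fit, 6.29% were called lower. Of these genes 14019 met the filter, and of the 32 members 23 did. The members thus differ from these genes in level, so the 12 are not set against that share. Of the 20 genes without overlap, 19 had KO WD levels that overlapped those of WT livers on chow, and Ccnd1 was below them. All log2 differences below are on the scale of log2(FPKM + 1), which understates the change of genes near 0.

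The 6 MCM proteins form the ring that unwinds DNA at the fork. Mcm6 (ENSMUSG00000026355) was 4.35, 2.79 and 3.25 FPKM in the livers labelled WT on WD and 0.799, 1.84 and 1.30 in those labelled KO. The highest KO library was below the lowest WT library. The difference was -0.96 ± 0.21 (log2, SE; limma adjusted p = 0.0123). Mcm3 (ENSMUSG00000041859) gave 3.25, 2.59 and 3.69 FPKM in WT and 1.88, 1.72 and 1.61 in KO, again without overlap. Its difference was -0.60 ± 0.13 (limma adjusted p = 0.0118). Mcm2 (-0.58 ± 0.19, limma adjusted p = 0.0538), Mcm4 (-0.54 ± 0.20, 0.0774) and Mcm5 (-0.63 ± 0.25, 0.102) did not pass, though their groups did not overlap either. Mcm7 overlapped, with 4.89, 4.95 and 4.96 FPKM in WT and 4.68, 3.92 and 5.63 in KO. CDC6 and CDT1 load this helicase. Cdt1 was 2.18, 1.72 and 2.52 FPKM in WT and 0.884, 1.54 and 1.95 in KO, which overlap, and neither gene was called.

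Pcna encodes the sliding clamp of the DNA polymerases. It was 18.9, 16.1 and 17.5 FPKM in WT and 14.6, 14.6 and 13.3 in KO on WD. The groups did not overlap, but the difference was small, at -0.28 ± 0.08 (limma adjusted p = 0.033). The enzymes of nucleotide supply did not form 1 pattern with it. Rrm1, the large subunit of ribonucleotide reductase, was lower without overlap (1.80, 1.68 and 1.70 FPKM in WT; 1.28, 1.37 and 1.36 in KO) and was not called. Rrm2, the small subunit, overlapped at 4.16, 1.94 and 1.85 FPKM in WT and 1.78, 2.36 and 2.67 in KO. Tk1 (thymidine kinase) and Tyms (thymidylate synthase) overlapped as well.

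Cyclin D1, from Ccnd1 (ENSMUSG00000070348), is the cyclin that couples growth signals to the G1 kinases. Its transcript was 9.89, 14.7 and 8.51 FPKM in WT and 3.42, 4.43 and 2.73 in KO on WD. Every WT library was above every KO library, and the difference was -1.39 ± 0.35 (limma adjusted p = 0.0192). Ccne1, Ccne2 and E2f1 overlapped between the groups and were not called. Ccnb2 (cyclin B2) was 1.75, 1.17 and 1.17 FPKM in WT and 0.104, 0.192 and 0.667 in KO (-0.85 ± 0.22, limma adjusted p = 0.0232). Of the other S to M cyclins and kinases, Aurka alone met the filter. Cdk1, the mitotic kinase, was 1.20, 0.540 and 0.664 FPKM in WT and 0.161, 0.119 and 0.155 in KO. In the fit without a filter it was -0.64 ± 0.14 (limma adjusted p = 0.0232). Plk1 (-0.51 ± 0.12, limma adjusted p = 0.0302) and Ccnb1 (-0.39 ± 0.08, 0.0205) were called there too. Ccna2 was lower without overlap and not called, Aurkb overlapped, and Aurka, at 1.13, 1.30 and 1.03 FPKM in WT and 1.07, 0.987 and 1.82 in KO, overlapped as well.

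Of the genes of chromosome segregation, Mki67 (ENSMUSG00000031004), which codes for the Ki-67 protein of cycling cells, was 2.84, 1.01 and 1.24 FPKM in WT and 0.189, 0.183 and 0.508 in KO on WD. These are 459, 164 and 201 reads against 24, 25 and 60. The lowest WT library was above the highest KO library, with a difference of -1.01 ± 0.24 (limma adjusted p = 0.0157). Cdc20, the activator of the anaphase-promoting complex, was 2.30, 1.36 and 0.993 FPKM in WT and 0.297, 0.275 and 0.547 in KO (-0.87 ± 0.20, limma adjusted p = 0.0138). Top2a, the topoisomerase that untangles sister chromatids, was 1.84, 0.887 and 1.15 FPKM in WT and 0.132, 0.261 and 0.519 in KO (-0.80 ± 0.19, limma adjusted p = 0.0159). The checkpoint gene Bub1b was called in the fit without a filter (-0.51 ± 0.12, limma adjusted p = 0.026). Birc5 (survivin) overlapped between the groups.

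The inhibitor gene Cdkn1a (ENSMUSG00000023067) fell along with the genes that drive the cycle. It was 6.92, 6.89 and 7.50 FPKM in WT and 0.982, 0.600 and 2.06 in KO on WD, or 395, 395 and 431 reads against 44, 29 and 86. The WT libraries lay close together and above all KO libraries, and the difference had the largest size among the 23 tested members, at -1.92 ± 0.49 (limma adjusted p = 0.0215). Cdkn3, a phosphatase that acts on CDK1 and CDK2, was lower without overlap at 0.104 to 0.394 FPKM in WT and 0 to 0.0929 in KO.

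Single libraries carried part of this count. Without WT WD liver 1, which was the highest of the 12 livers for 20 of the 32 genes, Mcm3 and Mki67 were the 2 members still called, and without KO WD liver 1 there were 3 (Mcm3, Mcm6 and Cdc20). Mcm3 was called in all 6 fits that left out 1 of the compared libraries. Mcm6 and Cdc20 were lost only without WT WD 1, Mki67 only without KO WD 1, and Top2a without either of these. Ccnd1 was called in 2 of the 6 fits (without WT WD 3 or KO WD 2), Cdkn1a and Ccnb2 each in 2 (without WT WD 2 or KO WD 3) and Pcna in 1 (without WT WD 2). Without the acinar-marked livers 6 members were called, and without the muscle-marked livers 7. By edgeR 7 of the 23 members tested were called and by DESeq2 10, on the reads recovered from the FPKM. Of all genes, 18.7% and 23.6% were called in either direction. The 23 include members that met the filter only through WT WD, so these counts are not set against those shares. On plain RPM (reads scaled to library size alone), 14 were called lower and 0 higher, but that scaling moved the median of all genes tested from 0.07 to -0.19. Of all called genes 338 were then higher and 3081 lower, against 1490 and 1453 here and 1027 and 1593 by edgeR.

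**Figure D2:**
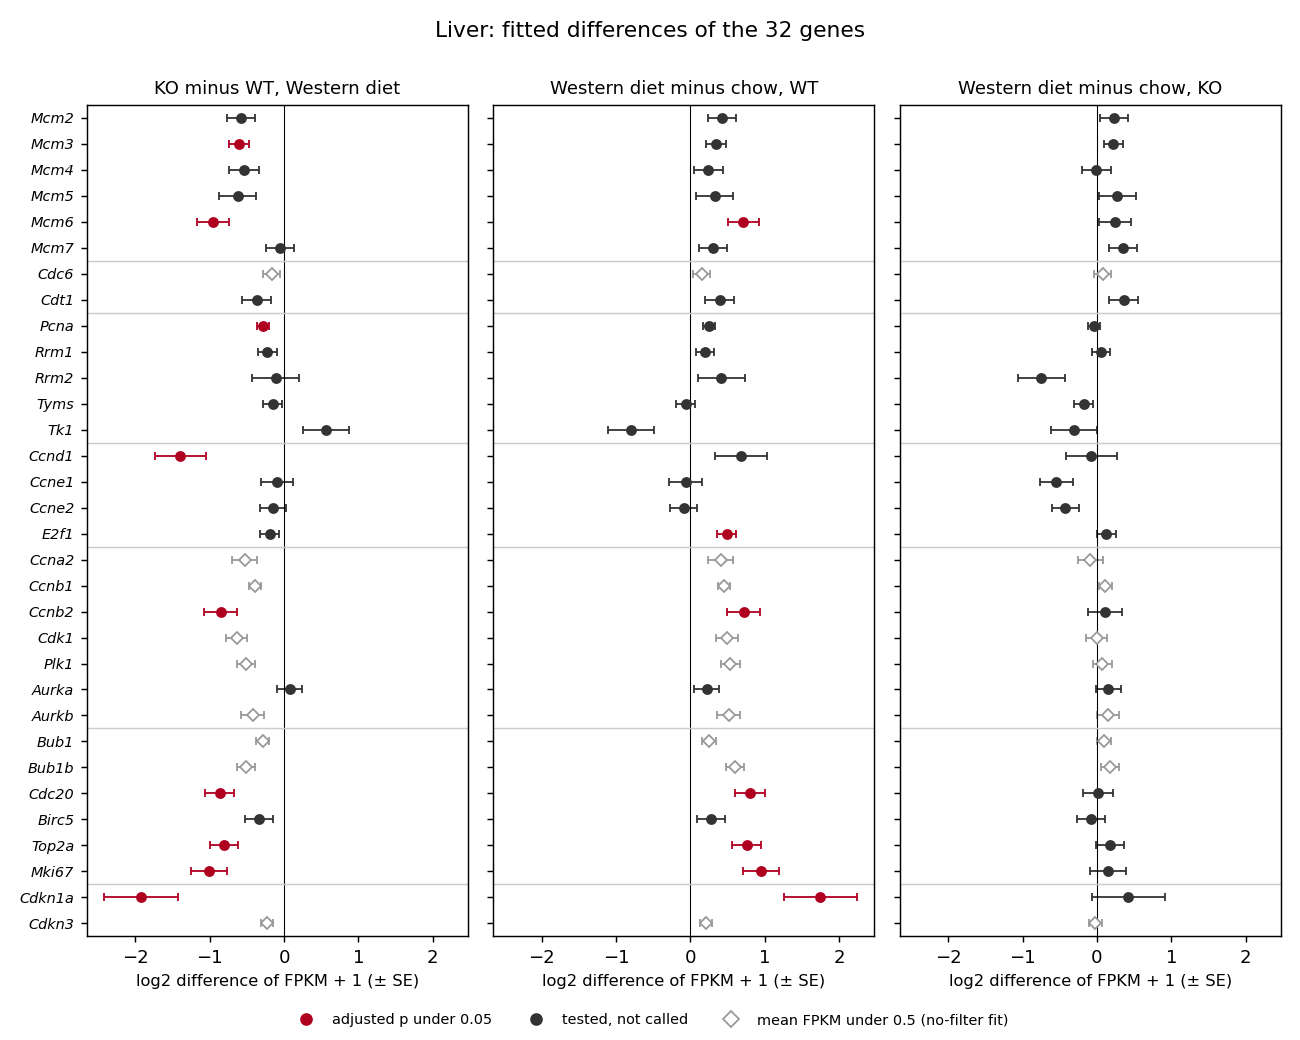
Fitted log2 differences of FPKM + 1 with their SE (horizontal axes, shared) for the 32 genes in liver, KO minus WT on WD, WD minus chow in WT and WD minus chow in KO, with grey lines between role groups. Red points passed an adjusted p of 0.05 (9, 7 and 0 genes), and open diamonds had a mean under 0.5 FPKM and come from the fit without a filter.

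The same group, WT on WD, stood out when the diets were compared within WT livers, and the 2 comparisons share those 3 libraries, so neither supports the other. Of the 32 genes, 17 were higher in every WT WD liver than in every WT chow liver, against 15.2% of all genes tested, and 1 (Tk1) was lower. Called higher were 7 members: Mcm6, E2f1, Ccnb2, Cdc20, Top2a, Mki67 and Cdkn1a. Of all genes tested 9.72% were called higher and 19.2% in either direction. Ccnb2, Cdc20, Top2a and Mki67 again met the filter only through WT WD, and of the 18 members that met it without that group 3 were called. The fit without a filter also called 7 of the 32: E2f1, Cdc20, Mki67, Top2a, Bub1b, Plk1 and Ccnb1. Of all its genes, again unlike the members in level, 5.57% were called higher. The no-overlap pattern of both comparisons at once, highest in WT WD against KO WD and against WT chow, was shown by 15 genes, among them Pcna, Rrm1, Mcm2, Mcm6 and Ccnd1.

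Mcm6 was 1.68, 2.38 and 1.16 FPKM in WT chow livers, each below the WT WD values of 2.79 to 4.35 (0.71 ± 0.21, limma adjusted p = 0.0411). E2f1, the transcription factor of the G1 to S transition, was 1.24, 1.46 and 1.21 FPKM on chow and 2.35, 1.75 and 2.63 on WD. These did not overlap, and the difference was 0.49 ± 0.13 (limma adjusted p = 0.0258). In the KO livers on WD E2f1 was 1.43, 2.0 and 2.05 FPKM, which overlaps with WT WD. Ccnb2 was 0.266, 1.0 and 0.159 FPKM on chow (0.71 ± 0.22, limma adjusted p = 0.0485). Mki67 was 0.267, 0.678 and 0.137 FPKM on chow (0.94 ± 0.24, limma adjusted p = 0.0215). In both genes the second chow library was the highest of its group. Cdc20 was 0.436, 0.739 and 0.174 FPKM on chow (0.80 ± 0.20, limma adjusted p = 0.0199). Top2a was 0.353, 0.612 and 0.0990 FPKM (0.76 ± 0.19, limma adjusted p = 0.0215). Both repeated the order of the chow libraries, with WT chow 2 highest and WT chow 3 lowest.

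Cdkn1a on chow split the WT livers, at 0.528, 5.46 and 0.434 FPKM (23, 253 and 19 reads), with WT chow 2 near the WD level. The difference to WD was 1.74 ± 0.49 (limma adjusted p = 0.0332). WT chow 2 was also the highest of its group for 19 of the 32 genes and for macrophage markers (320 FPKM against 153 and 155). Pcna (0.25 ± 0.08, limma adjusted p = 0.0534) and Mcm3 (0.35 ± 0.13, 0.0937) did not pass. Pcna was 14.4, 15.5 and 13.7 FPKM on chow, all below WD. Cdt1, at 1.87, 1.05 and 1.29 FPKM on chow, overlapped with WD. Tk1 went the other way, from 6.35, 7.77 and 9.59 FPKM on chow to 5.47, 2.66 and 4.48 on WD, and did not pass either (-0.80 ± 0.31, limma adjusted p = 0.0971).

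Single libraries decided this count too. It was 0 without WT chow 3 or without WT WD 1, 2 without WT WD 3 (Mki67 and Cdc20), 3 without WT chow 1 (Mki67, Top2a and Cdc20) and 8 without WT chow 2, where Pcna joined. Without the acinar-marked livers 3 members were called (E2f1, Mki67 and Top2a), and without the muscle-marked livers 0. In a fit of these 2 groups alone the count was also 0. Of the fits that left out 1 library, Mcm6 and E2f1 were called only in those without WT chow 2 or WT WD 2, Ccnb2 and Cdkn1a only in that without WT chow 2. By edgeR 5 members were called (21.7%, against 18.1% of all genes in either direction) and by DESeq2 6 (26.1%, against 23.1%). This is near the share of all genes, and the members tested include those that met the filter only through WT WD. Without WT WD 2, Mcm3 and Pcna were called as well. On RPM 13 members were called higher; there 3679 of all called genes were higher and 361 lower, against 1363 and 1330 here, and the median of all genes moved from -0.05 to 0.22.

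In KO livers the diets gave no called member, against 0.421% of all genes (59). At an unadjusted p under 0.05 there were 3 of the 23 tested members (13.0%), all lower on WD, against 15.4% of all genes tested. By edgeR and by DESeq2 0 members were called, against 71 and 633 of all genes. The 3 were Ccne1 (-0.54 ± 0.22), Ccne2 (-0.42 ± 0.18) and Rrm2 (-0.75 ± 0.32), 2 cyclins of S phase entry and a subunit of ribonucleotide reductase, at limma adjusted p of 0.268, 0.29 and 0.299. Without overlap, 2 of the 32 were lower on WD (Ccne1 and Rrm2; 12.5% of all genes) and 4 higher (Mcm3, Ccnb1, Bub1 and Bub1b; 14.2%). Ccne1 was 1.28, 1.22 and 1.15 FPKM on chow and 0.268, 1.05 and 0.352 on WD. Mki67 was 0.131, 0.150 and 0.200 FPKM on chow and 0.189, 0.183 and 0.508 on WD, which overlap. Cdkn1a overlapped too, at 0.481, 0.357 and 1.01 FPKM on chow. Mcm7 (3.62, 2.87 and 3.99 FPKM on chow), Aurka (0.829, 1.22 and 1.08) and Top2a (0.129, 0.150 and 0.166) had the smallest p of their role groups and overlapped with WD, and so did Cdt1. On RPM 44 of all called genes were higher and 35 lower, against 21 and 38 here.

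A difference between the diets in one genotype and not in the other does not show that the genotypes responded differently, so that difference was tested itself. The interaction in liver called 0 members, against 0.549% of all genes (77), and edgeR and DESeq2 also called 0. At an unadjusted p under 0.05 were 4 of the 23 tested members (17.4%), near the 16.4% of all genes tested. All 4 had a WD minus chow difference that was lower in KO than in WT. They were Cdc20 (-0.78 ± 0.28), Pcna (-0.30 ± 0.11), Rrm2 (-1.16 ± 0.45) and Mki67 (-0.80 ± 0.34), at limma adjusted p of 0.209, 0.239, 0.245 and 0.277. Cdc20 and Mki67 met the filter only through WT WD. Without WT chow liver 2, the one with high Cdkn1a, Cdkn1a alone was called (limma adjusted p = 0.0281, and 0.0281 to 0.795 over the alternatives). All-gene calls of the interaction were 18 higher and 59 lower here, 13 and 293 on RPM, and 190 and 338 by DESeq2.

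On chow, livers of KO and WT mice gave no called gene by limma (0.0% of all genes, 675 at an unadjusted p under 0.05; edgeR called 0 genes and DESeq2 16), and edgeR and DESeq2 called 0 members. At an unadjusted p under 0.05 were 4 members, 3 of them subunits of the helicase and lower in KO. Mcm3 was 2.63, 2.43 and 1.79 FPKM in WT and 1.53, 1.40 and 1.12 in KO, without overlap (-0.48 ± 0.13, limma adjusted p = 0.863). Mcm6 (-0.49 ± 0.21) and Mcm5 (-0.57 ± 0.25) had the same adjusted p of 0.863 by limma. Rrm2 was higher in KO, at 3.00, 5.53 and 5.18 FPKM against 0.676, 2.52 and 2.11 in WT (1.05 ± 0.32, limma adjusted p = 0.863). The 2 highest values of Rrm2 among all 12 livers were thus on chow in KO. Without overlap, 3 of the 32 were lower in KO (Mcm3, Ccnb1 and Bub1; 4.34% of all genes) and 2 higher (Rrm2 and Ccne1; 4.59%). Ccnd1 overlapped, at 6.21, 5.28 and 7.70 FPKM in WT and 4.06, 6.86 and 1.63 in KO, as did Ccnb2 (0.203, 0.156 and 0.254 in KO) and Cdt1 (1.24, 0.784 and 0.682 in KO).

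The other genes of the pathway, 167 entries in 6 lists with Ccng1 in 2 of them, moved in both directions in liver on WD. Of 108 entries tested, 15 were called lower in the livers labelled KO (13.9%) and 6 higher. Of all genes tested, 10.4% were called lower. Which entries met the filter only through WT WD was not checked. The counts and medians of these lists are therefore not set against those of all genes. Among other replication genes 3 of 35 were called lower and 2 higher, with a list median of 0.00. The median of all genes was 0.07. Lig1, the ligase that seals Okazaki fragments, was lower (-0.81 ± 0.14), as were Dnmt1 (-0.41 ± 0.09) and Uhrf1 (-0.78 ± 0.20), which copy DNA methylation. Mcm10, a replication initiation factor, was higher (1.32 ± 0.26). Of the other genes of mitosis 5 of 18 were called lower and 0 higher, with a median of -0.15. Incenp, a subunit of the Aurora B complex, led them (-0.70 ± 0.16), followed by Stmn1 (-0.68 ± 0.17), Hmgb2 (-0.65 ± 0.18) and Smc4 of condensin (-0.46 ± 0.13). A further 40 genes of that list were too low to test.

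Cyclin D genes split: Ccnd2 was lower (-0.46 ± 0.11) and Ccnd3 higher (0.34 ± 0.08). In the list of retinoblastoma and E2F regulators the retinoblastoma relative Rbl1 was lower (-0.71 ± 0.18), while Rbl2 (0.53 ± 0.12), Lin52 (0.41 ± 0.11) and the repressor E2f8 (1.11 ± 0.35) were higher. Of the other inhibitors Cdkn2c (p18) was lower (-1.51 ± 0.17, limma adjusted p = 0.00106), 1 of 5 tested. Targets of p53 other than Cdkn1a had 4 of 18 called lower and 0 higher: Bax (-0.60 ± 0.09), Phlda3 (-0.94 ± 0.17), Plk2 (-1.07 ± 0.20) and Pmaip1 (-0.85 ± 0.18). The median of that list was -0.13, and 7 of the 18 were above 0. In WT livers WD against chow called 14 of the 108 entries higher (13.0%) and 4 lower. Of all genes 9.72% were called higher, a share not comparable for the same reason of the filter. Lig1 (0.54 ± 0.14), Dnmt1 (0.45 ± 0.09), Incenp (0.73 ± 0.16), Stmn1 (0.73 ± 0.17), Smc4 (0.49 ± 0.13), Hmgb2 (0.63 ± 0.18), Ccnd2 (0.47 ± 0.11), E2f2 (0.80 ± 0.18) and Cdkn2c (1.37 ± 0.17) were higher. So were the p53 targets Bax (0.56 ± 0.09), Phlda3 (0.97 ± 0.17), Pmaip1 (0.83 ± 0.18) and Plk2 (0.92 ± 0.20). Among those lower were Mcm10 (-1.40 ± 0.26), Tfdp2 (-0.53 ± 0.14) and Rbbp4 (-0.49 ± 0.15).

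Markers of several other cell types, though not of all, moved with the members in liver. Macrophage markers (12 genes, all found) summed to 934, 433 and 1098 FPKM in WT WD, 202, 208 and 172 in KO WD, 153 to 320 in WT chow and 157 to 191 in KO chow. In KO against WT on WD 7 of 11 tested were called lower. Stellate cell and fibroblast markers (7 of 10 called lower) summed to 138 to 217 FPKM in WT WD and 53.2 to 57.4 in KO WD. Cholangiocyte markers (4 of 4 tested called lower) summed to 149 to 253 and 18.4 to 31.9. Most of these sums came from Spp1, at 243, 142 and 138 FPKM in WT WD and 16.0, 16.4 and 28.6 in KO WD. Lymphocyte markers (4 of 5 called lower) summed to 8.13 to 13.8 and 2.05 to 4.13. Endothelial markers had 2 of 8 called lower, with sums that overlap (70.3 to 85.3 and 59.9 to 74.9), and red cell markers 0 of 5. In WT livers 9 of 11 macrophage, 7 of 10 stellate, 3 of 4 cholangiocyte and 5 of 8 endothelial markers were called higher on WD than on chow. Endothelial sums were 70.3 to 85.3 FPKM in WT WD and 49.7 to 56.4 in WT chow. Of lymphocyte markers 0 of 5 were called, and of hepatocyte markers 7 of 9 were called lower. Hepatocyte markers had 6 of 9 called higher in KO against WT on WD, with sums of 23438 to 31826 in WT and 30137 to 38424 in KO. The part of these cells in the levels of the cell cycle genes was not tested.

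The authors' deposited table of KO against WT on WD in liver holds genes with an unadjusted p under 0.05. It listed 20 of the 32 genes, all with a negative log2 fold change. In the authors' deposited table of KEGG pathways, 39.6% of all genes in pathways were changed in this comparison. In the authors' deposited table this was -2.59 for Cdkn1a, -2.58 for Mki67, -2.51 for Cdk1 and -1.67 for Ccnd1, on a scale with no pseudocount of 1. The authors' deposited table of KEGG pathways gave 41 changed genes of 120 in the cell cycle, 3 higher and 38 lower. In the authors' deposited table this is 34.2% of the pathway, against 39.6% of all genes in pathways. For chow livers the authors' deposited table listed 7 members, with Rrm2 at 1.37 and the other 6 negative, and a lowest adjusted p of 0.480. On chow, 4.98% of all genes in pathways were changed in the authors' deposited table.

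**Figure D3:**
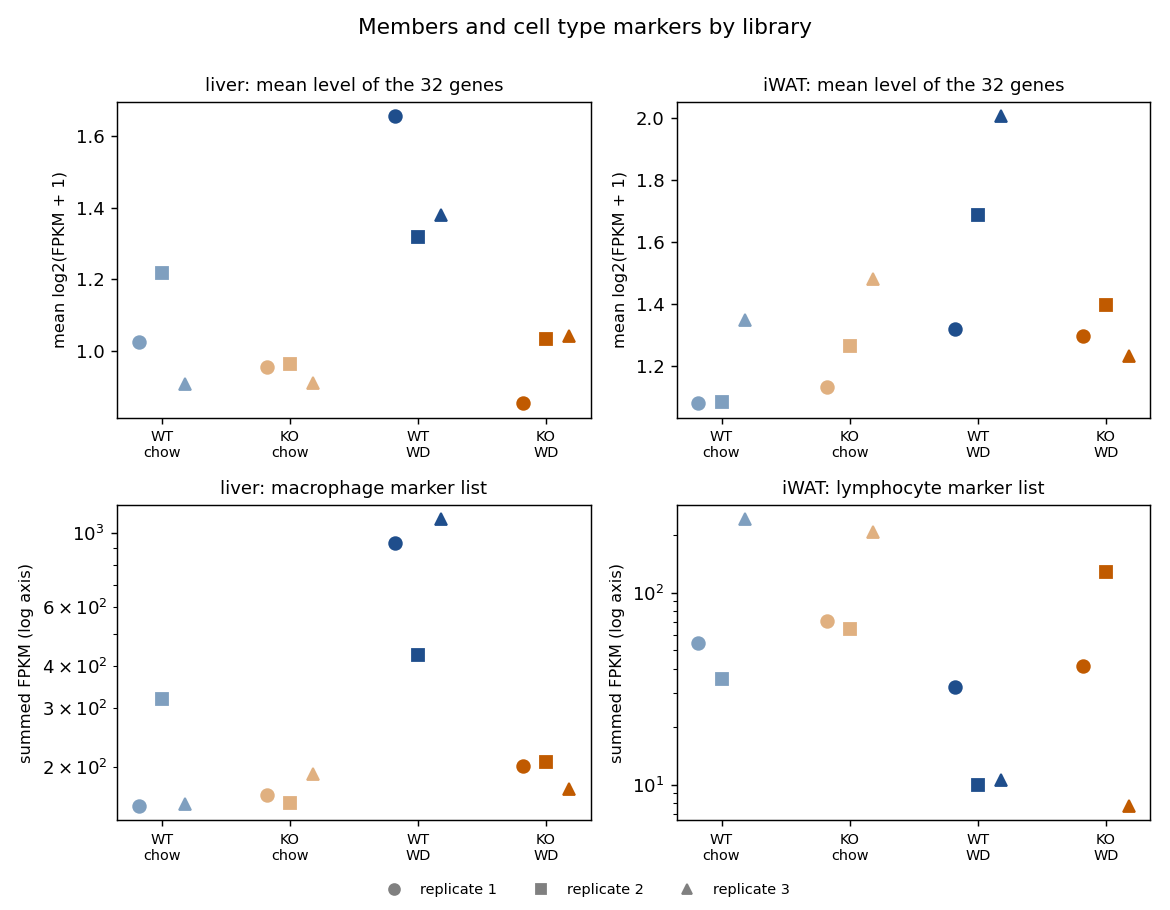
Upper panels, mean of log2(FPKM + 1) over the 32 genes in each library by group, liver left and iWAT right; lower panels, summed FPKM of macrophage markers in liver and lymphocyte markers in iWAT on a log axis. Shapes give the replicate: the 3 WT WD livers lie above the other 9 in both left panels, and in iWAT the third chow libraries are the highest of their groups in both panels while WT WD 3 is highest for the 32 genes.

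In iWAT no member was called in any of the 5 comparisons, and single libraries stood out across many of the genes. WT WD 3 was the highest of the 12 libraries for 28 of the 32 genes (all but Ccne1, Birc5, Cdc6 and Cdkn1a). On chow the third library was the highest of its group for 25 genes in WT and for 25 in KO, and for 21 genes in both; these are the 2 chow libraries with the most lymphocyte markers. WT WD 3, in contrast, had 10.5 FPKM of lymphocyte markers and the highest sum of macrophage markers (795 FPKM, against 297 to 462 in the other 11 libraries). WT WD 1 lay within the range of the KO WD libraries for 18 of the 32 genes. The part of these cells in the levels was not tested.

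**Figure D4:**
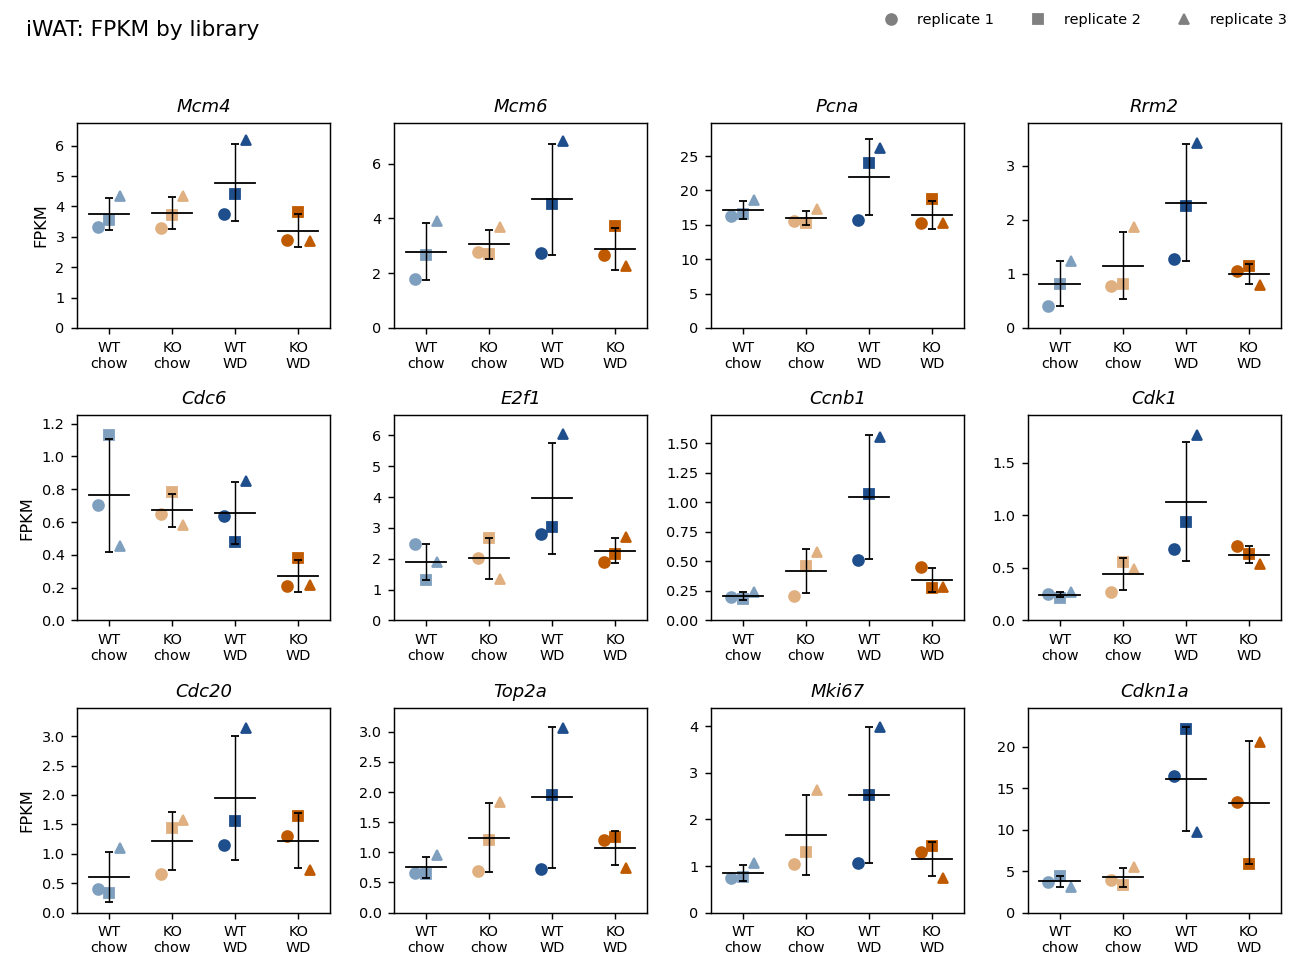
FPKM (vertical axes, linear) of 12 members in each of the 12 iWAT libraries by group, where marker shape gives the replicate, the bar the group mean and the whisker 1 SD (n = 3). In 10 of the 12 genes WT WD 3 is the highest library, and Cdkn1a is higher in all 6 WD libraries than in all 6 chow libraries.

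Between KO and WT on WD all 32 genes had a fitted difference below 0 in iWAT in the fit without a filter, with a median of -0.36. Of all genes tested 54.3% were below 0, with a median of -0.02. All 30 members that met the filter were below 0 too, with a median of -0.37. Without WT WD 3 that median was -0.16, with 28 of 30 below 0, and without WT WD 1 it was -0.56. Ccnb1, Cdk1 and Birc5 met the filter only because of the WT WD libraries, so they had to differ from that group. The count of 30 is therefore not set against the share of all genes. In liver 21 of the 23 tested members were below 0, and so were 41.2% of all genes. Ccnb2, Mki67, Top2a, Birc5 and Cdc20 met the filter there only through WT WD, so this count is not set against that share. No member was called in iWAT, where 4.25% of all genes were. An unadjusted p under 0.05 was found for 5 of 30 members and for 18.6% of all genes. By edgeR 0 were called and by DESeq2 2 (Ccnb1 and Cdc6). Of all genes, 4.75% and 9.94% were called. The 30 include members that met the filter only through WT WD, so these counts are not set against those shares. Without overlap 6 of the 32 were lower in KO, against 12.3% of all genes: Rrm2, Cdc6, Ccne2, E2f1, Ccnb1 and Ccnb2. The libraries WT WD 2 and 3 were both above all KO WD libraries for 24 genes.

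Cyclin B1, from Ccnb1, is the partner of CDK1 in mitosis, and its gene had the smallest p. It was 0.508, 1.07 and 1.55 FPKM in WT and 0.455, 0.278 and 0.280 in KO on WD. The groups did not overlap, but WT WD 1 lay close to KO WD 1 (-0.58 ± 0.18, limma adjusted p = 0.109). Ccnb2 was 1.26, 2.38 and 4.04 FPKM in WT and 1.25, 0.605 and 0.943 in KO (-0.82 ± 0.28, limma adjusted p = 0.145). Mcm4 was 3.77, 4.40 and 6.19 FPKM in WT and 2.91, 3.83 and 2.88 in KO, with an overlap (-0.45 ± 0.16, limma adjusted p = 0.164). Rrm2 was 1.28, 2.25 and 3.42 FPKM against 1.05, 1.14 and 0.789 (-0.69 ± 0.27, limma adjusted p = 0.204). In each of these 4 genes the third WT library was the highest and the first the lowest of its group. Cdc6, a licensing factor, followed another order, at 0.636, 0.479 and 0.850 FPKM in WT and 0.208, 0.382 and 0.217 in KO (-0.38 ± 0.15, limma adjusted p = 0.209). E2f1 was 2.80, 3.02 and 6.05 FPKM in WT and 1.91, 2.15 and 2.70 in KO. Mki67 was 1.06, 2.54 and 3.99 FPKM in WT and 1.30, 1.43 and 0.743 in KO, which overlap. Without WT WD 1 the members called were Ccnb1 (limma adjusted p 0.0194 to 0.342 over the alternatives) and Pcna (0.0483 to 0.64). On RPM Cdc6 was called. The all-gene calls were then 422 higher and 675 lower, against 470 and 154 here, with the median moved from -0.02 to -0.14.

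**Figure D5:**
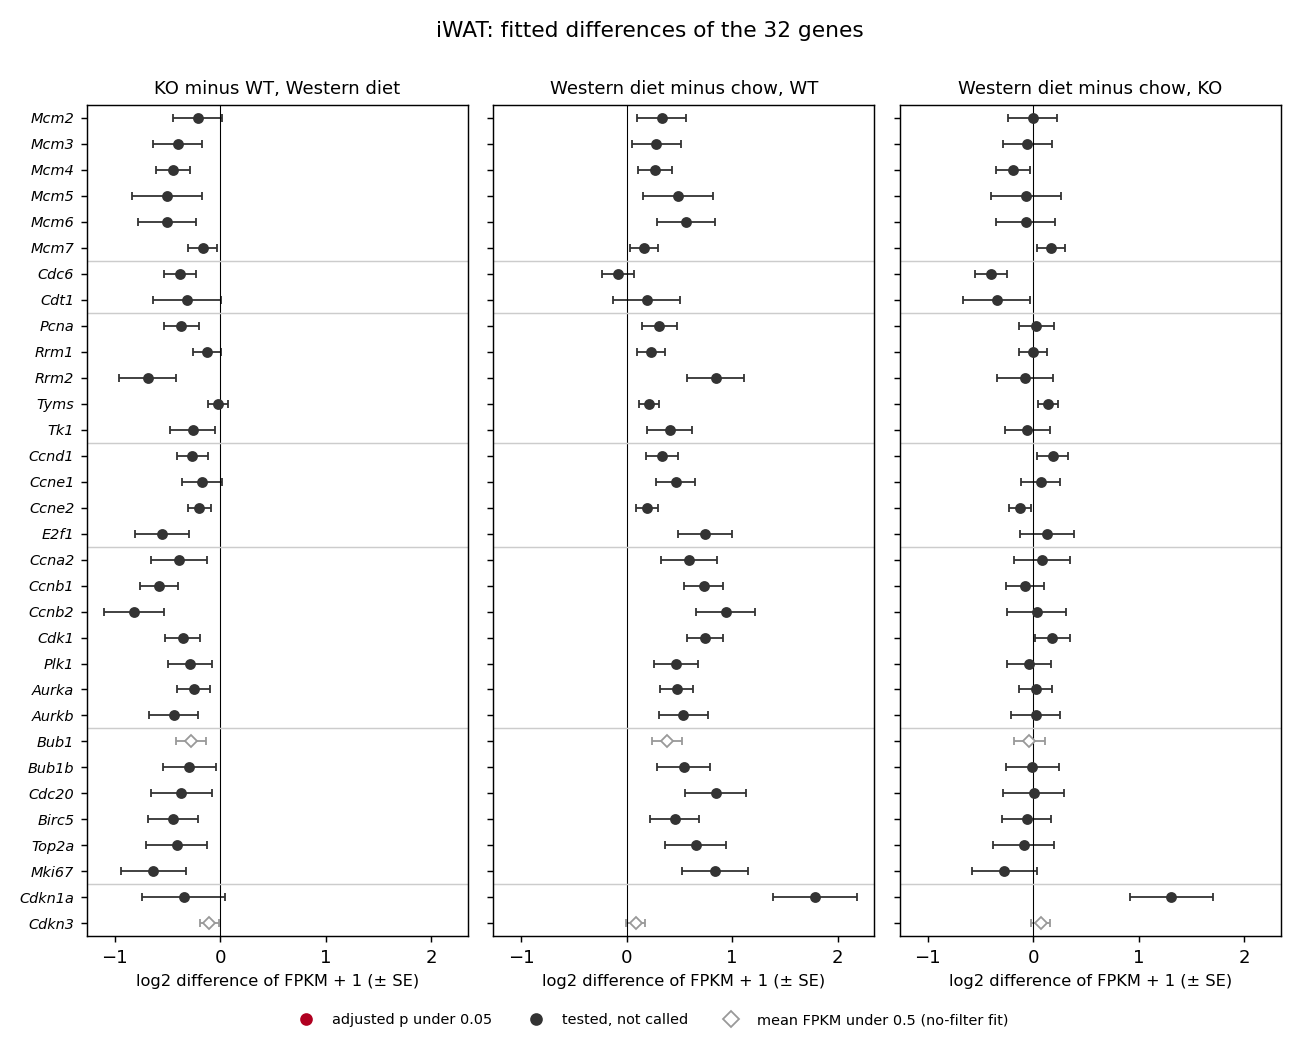
Fitted log2 differences of FPKM + 1 with their SE (horizontal axes, shared) for the 32 genes in iWAT, KO minus WT on WD, WD minus chow in WT and WD minus chow in KO. No point passed an adjusted p of 0.05; open diamonds are Bub1 and Cdkn3, whose mean was under 0.5 FPKM, from the fit without a filter.

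Between WD and chow in WT iWAT no member was called (2.12% of all genes were), and the median difference over all 32 genes without a filter was 0.46. Over the 30 tested it was 0.47, and 0.74 without WT WD 1 and 0.29 without WT WD 3. An unadjusted p under 0.05 was reached by 14 of the 30 tested and by 21.2% of all genes. By edgeR 3 of the 30 were called (Ccnb1, Cdk1 and Cdkn1a) and by DESeq2 6. Of all genes, 2.76% and 10.9% were called. Ccnb1 and Cdk1 are in each of these counts and met the filter only through WT WD. The counts are therefore not set against those shares. Without overlap 9 of the 32 were higher on WD, against 15.5% of all genes: Ccnb1, Ccnb2, Cdk1, Mki67, Aurka, Rrm2, Cdc20, Cdkn1a and E2f1. Cdkn1a was 3.73, 4.48 and 3.08 FPKM on chow and 16.5, 22.2 and 9.70 on WD. All WD libraries were above all chow libraries (1.79 ± 0.40, limma adjusted p = 0.0503, and 6.63e-05 to 0.166 over the alternatives). Cdk1 was 0.251, 0.215 and 0.267 FPKM on chow and 0.683, 0.934 and 1.76 on WD (0.74 ± 0.17, limma adjusted p = 0.0558, and 2.68e-05 to 0.151). Ccnb1 was 0.199, 0.178 and 0.239 FPKM on chow, or 19, 17 and 26 reads (0.73 ± 0.18, limma adjusted p = 0.0675). These 3 had even chow libraries, and their WD libraries spread more widely.

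Rrm2 was 0.399, 0.814 and 1.23 FPKM on chow (0.84 ± 0.27, limma adjusted p = 0.123). Cdc20 was 0.402, 0.331 and 1.10 FPKM on chow and 1.15, 1.55 and 3.14 on WD (0.84 ± 0.29, limma adjusted p = 0.141). In both, the highest chow library was just below the lowest WD library. E2f1 was 2.47, 1.30 and 1.89 FPKM on chow (0.74 ± 0.26, limma adjusted p = 0.144). Mcm6, the helicase gene with the smallest p, was 1.80, 2.66 and 3.89 FPKM on chow and 2.75, 4.52 and 6.81 on WD, which overlap. Cdt1 overlapped too (1.13, 1.04 and 2.47 FPKM on chow; 0.864, 2.0 and 2.99 on WD). The other members with an unadjusted p under 0.05 were Ccnb2, Aurka, Mki67, Ccne1, Aurkb, Top2a, Ccnd1 and Ccna2, with differences of 0.33 to 0.94 and limma adjusted p of 0.106 to 0.236. Without WT WD 1, the library with the most muscle markers, Ccnb1, Ccnb2 and Cdk1 were called, and without both muscle-marked libraries Ccnb1 was.

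In KO iWAT the diets gave 0 called members and 0.0% of all genes by limma (1390 genes at an unadjusted p under 0.05; edgeR called 0 genes and DESeq2 175), with 2 members at an unadjusted p under 0.05; edgeR called 0 and DESeq2 1 (Cdkn1a). Cdkn1a was 3.91, 3.36 and 5.47 FPKM on chow and 13.3, 5.82 and 20.6 on WD, without overlap (1.31 ± 0.40, limma adjusted p = 0.389, and 0.0183 to 0.725 over the alternatives). It was the member with the largest rise on WD in both genotypes, and its levels in KO and WT on WD overlapped. Cdc6 was 0.648, 0.782 and 0.582 FPKM on chow, above all WD libraries (-0.40 ± 0.15, limma adjusted p = 0.451). Without overlap 2 of the 32 were lower (Ccne2 and Cdc6; 6.45% of all genes) and 2 higher (Tyms and Cdkn1a; 8.63%). Tyms was 0.739, 0.664 and 0.683 FPKM on chow and 0.775, 0.961 and 0.869 on WD. Mki67 (1.05, 1.30 and 2.64 FPKM on chow), Cdk1 (0.265, 0.553 and 0.493), Ccnd1 (3.70, 3.97 and 3.20) and Mcm7 (3.63, 4.24 and 5.18) overlapped between the diets.

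The interaction in iWAT called 0 members and 0.0% of all genes by limma (1011 genes at an unadjusted p under 0.05; edgeR called 0 genes and DESeq2 51), and edgeR and DESeq2 called 0 members. An unadjusted p under 0.05 was reached by 5 members: Ccnb1 (-0.81 ± 0.26), Mki67 (-1.11 ± 0.44), Rrm2 (-0.92 ± 0.38), Cdk1 (-0.56 ± 0.24) and Ccnb2 (-0.90 ± 0.40), at limma adjusted p of 0.643 to 0.721. On chow KO and WT iWAT gave 0 called members and 0.0% of all genes by limma (830 genes at an unadjusted p under 0.05; edgeR called 0 genes and DESeq2 68), with 0 members at an unadjusted p under 0.05 by limma or edgeR, 1 by DESeq2, and 0 called by either. Cdc20 had the smallest p, at 0.659, 1.43 and 1.57 FPKM in KO, which overlaps with WT. Bub1 was the 1 gene higher in KO without overlap, against 5.86% of all genes. Ccne1 (0.930, 0.565 and 1.80 FPKM in WT; 1.32, 1.15 and 1.70 in KO), Mcm7 (5.40, 4.53 and 5.08; 3.63, 4.24 and 5.18), Aurka (0.262, 0.681 and 0.612; 0.654, 0.616 and 0.935) and Tk1 (0.808, 0.834 and 1.45; 1.0, 0.993 and 2.11) overlapped.

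Of the 122 entries of the other pathway lists tested in iWAT, 2 were called lower in KO on WD. These were Ube2c, which charges the anaphase-promoting complex with ubiquitin (-0.76 ± 0.18, limma adjusted p = 0.0461), and the p53 target Mdm2 (-0.34 ± 0.07, 0.0358). In WT iWAT 4 were called higher on WD: Ube2c (0.95 ± 0.18), Aen (0.48 ± 0.09), Plk2 (0.88 ± 0.17) and Mdm2 (0.35 ± 0.07). Of the other genes of mitosis 27 of 28 were below 0 in KO against WT on WD, with a median of -0.35. The median of all genes was -0.02, but which entries met the filter only through WT WD was not checked. Beside these values, macrophage markers summed to 390, 419 and 795 FPKM in WT WD and 413, 462 and 306 in KO WD, with Clec4f at 0 in all WT WD libraries. The sums overlap, but 10 of the 11 macrophage markers tested were below 0 in KO against WT, with a median of -0.57 and none called. Lymphocyte markers summed to 32.2, 9.93 and 10.5 FPKM and to 41.2, 128 and 7.73, with 10 of 10 above 0 in KO against WT and none called. Their part in the levels was not tested. The authors' deposited table for this comparison listed 9 of the 32 genes, all negative, with an adjusted p of 0.0231 for Ccnb1 and 0.0480 for Cdc6. For iWAT on chow the authors' deposited table listed 4 members (Mki67, Ccnb1, Cdk1 and Bub1), all positive, with a lowest adjusted p of 0.523. Of all genes in pathways, the authors' deposited table had 20.6% changed in iWAT on WD and 5.20% on chow.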

How the data were processed

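Libraries were made from poly-T captured RNA, per the labels' protocols. The submitters' processing notes list the tools HISAT2 2.0.5 and DESeq2 1.20.0 and the build mm10, with no role. A read counter and strandedness are not stated there, so reads of overlapping or antisense genes cannot be told apart. The authors' FPKM of 54532 genes in 24 libraries were analysed, per the file headers. For genes with an unadjusted p under 0.05 the authors also deposited counts of reads, a log2 fold change and p-values between genotypes. Another 56 value columns were left aside. Each FPKM times gene length and 1 constant per library gave whole reads within 0.01 for all 540911 values above 0 (100%), and all 64434 comparable deposited counts equalled them. The size that scales the FPKM, divided by the recovered reads, was 0.980 to 1.07 in WT WD livers, 0.769 to 0.854 in the other livers and 1.24 to 1.60 in iWAT.

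Each tissue was fitted with its 4 groups in 1 model with limma 3.58.1 (R 4.3.3) on log2(FPKM + 1), variance trend and robust prior, keeping genes whose mean FPKM reached 0.5 (14019 in liver, 14685 in iWAT). Benjamini-Hochberg adjustment ran over all genes tested, and an adjusted p under 0.05 was called. Differences are given ± SE. Count models on those reads (edgeR 4.0.16, DESeq2 1.42.0), other pseudocounts, filters, scalings, library weights, samples and a replicate block were alternatives. The scripts were tested on simulated data. Python 3.11.15, pandas 2.3.3, numpy 2.4.6 and matplotlib 3.10.9 made tables and plots.

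The members, role groups, pathway and marker lists and tests were chosen with earlier results of these data known. Genes were named by rule: every called member; for roles without one, the member with the smallest p by library; and of each other pathway list the called genes among the 4 with the smallest p, where it held any; some genes are not reported here. Libraries are named by group and number from the labels. Equal numbers were checked for pairing: only in the comparison of genotypes in chow-fed iWAT did all 3 pairs of residuals correlate above 0.1 (r = 0.184, 0.127 and 0.407 across genes), where the replicate block also called 0 members. Promoter entries were those nearest the deposited gene start.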

Additional observations from a re-analysis of the deposited data

Results flagged for a closer look

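Bub1, a kinase of the spindle checkpoint, differed without overlap between KO and WT on chow, in opposite directions in liver and iWAT. In liver all 3 KO libraries had 0 reads, which allows up to 3 reads each, and WT had 2, 14 and 1. The fitted difference without a filter was -0.13 (log2), which depends on the pseudocount and is no bound. In iWAT every KO library was above every WT library, at 18, 18 and 37 reads against 10, 13 and 8 (0.14). The difference between the tissues was not tested.

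Cdkn2c, an inhibitor of CDK4 and CDK6 outside the 32 genes, had a genotype by diet interaction in liver that passed the adjusted threshold, at -1.38 ± 0.24 (log2, SE; limma adjusted p = 0.0433). WD minus chow was 1.37 ± 0.17 in WT and -0.01 ± 0.17 in KO.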

How the results depend on the processing

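In liver on WD, KO against WT, the called members numbered 2 with a mean FPKM of at least 5, where 3 members were tested, 14 on RPM, and 2 to 8 when single libraries were left out. For WD against chow in WT liver, where 7 were called, the count was 4 with a pseudocount of 0.1, 11 with a mean FPKM of at least 0.1, 1 with at least 5, 4 with library weights, 4 with the replicate block, 0 with only the groups compared and 13 on RPM. It was 3 without the acinar-marked and 0 without the muscle-marked livers, and 0 to 8 with single libraries left out. In iWAT, KO against WT on WD, 2 were called by DESeq2, 1 on RPM and 0 to 2 with libraries left out. For WD against chow in WT iWAT the count was 2 with a pseudocount of 0.1, 1 with a mean FPKM of at least 5, 1 with median-of-ratios scaling, 2 with quantile normalization, 6 with library weights, 3 by edgeR, 6 by DESeq2, 3 on RPM, 1 without the muscle-marked libraries and 0 to 3 with libraries left out. DESeq2 called 1 for WD against chow in KO iWAT, and the liver interaction gave 0 to 1 with libraries left out. The cause was not tested. The replicate block gave 9 members in KO against WT on WD in liver; outside iWAT on chow, equal numbers are only labels. Among 102 named log2 differences, 0 changed sign under any alternative; 310 values under an alternative were no longer called, 56 became called and 1636 kept their side. With 100 bases, the promoter shares were 59.3% for CCAAT (20.7% of all promoters), 18.5% for CHR (5.66%) and 3.70% for E2F (0.957%). The RPM scaling and the fits without marked libraries were chosen after seeing the data. Genes of mitosis had as few as 0 to 4 reads in some livers; what could be detected at such counts was not tested.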
